A study of Mus musculus with 16 samples.

Results

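The comparison described here, called Set D in the study, sets 4 libraries from the dentate gyrus of running p16 knockout mice (p16 KO RUN) against 4 libraries from sedentary p16 wild-type mice (p16 WT CTL), 8 of the 16 libraries of the series. The libraries were taken by their labelled genotype and treatment, and all genes were compared. The p16 KO RUN mice were p16Ink4a -/- and had a running wheel for 12 days, and the p16 WT CTL mice were p16Ink4a +/+ and stayed in standard cages. All were male C57BL/6 mice aged 1 year, and each library was made from the dentate gyri of 2 pooled mice. The knockout was first made in the FVB strain and then backcrossed to C57BL/6, and it keeps a working p19Arf. The other 8 libraries of the series, 4 of p16 KO CTL (knockout, sedentary) and 4 of p16 WT RUN (wild type, running for 12 days), differ from p16 WT CTL in genotype or in running alone. Set D changes genotype and running together, so within its 8 libraries their parts cannot be told apart.

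The dentate gyrus is a region of the hippocampus in which neural stem cells go on producing new granule neurons in the adult. p16Ink4a, a product of the Cdkn2a gene, binds CDK4 and CDK6 and so keeps the retinoblastoma protein in its growth-restraining state. When these kinases are active, E2F factors are released and the genes of DNA replication and mitosis are switched on. Running is known to raise neuronal activity in the dentate gyrus, and active granule neurons switch on immediate early transcription factors first and then secreted and synaptic proteins such as BDNF, activin A and neuronal pentraxin 2. Activin A is a dimer of the Inhba product that signals through activin receptors to SMAD2 and SMAD3, and follistatin binds and neutralises it.

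Values are in TPM, the length-corrected share of a library's transcripts that a gene takes. They are given before scaling of the libraries, and statements on overlap between groups refer to them. Scaled values can overlap where these do not, and the reverse. The log2 fold changes are p16 KO RUN minus p16 WT CTL on the log2(TPM + 0.1) scale after scaling of the libraries, which understates changes of genes near 0.1 TPM. A gene is said to have risen or fallen where the unadjusted p of limma, a linear model with variances moderated across genes, was under 0.05, which was the threshold of the study. In bulk tissue, fewer cells of a type and less RNA per cell cannot be told apart. Across genes, the correlation between any 2 of the 8 libraries was 0.969 to 0.987. A single library, p16 WT CTL replicate 2, stood apart from the others. Its summed level of 13 nuclear long noncoding RNAs was 1249 TPM, against 2151 to 2814 TPM in the other 7 libraries, and its relative coverage was 1.95 against 0.796 to 1.07. Granule neuron markers were high in both groups, with the transcription factor Prox1 at a mean and SD (n = 4) of 124 ± 38.5 TPM in p16 WT CTL against 145 ± 29.7 TPM in p16 KO RUN. The files hold no read counts, so the depth behind single values is unknown, and n = 4 pools do not show the spread between animals.

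Of 17350 genes tested, 855 rose in p16 KO RUN (4.93%) and 622 fell (3.59%), together 1477 genes (8.51%). The changes were mostly small (the median size among called genes was 0.34 on the log2 scale), and 190 of the called genes differed by at least 1 on the log2 scale (133 higher and 57 lower). In 960 genes (5.53%) the 4 p16 KO RUN libraries did not overlap the 4 p16 WT CTL libraries. With limma's p adjusted over all genes, 0 genes (0%) passed 0.05 and 13 (0.0749%) passed 0.10, with 0.058 as the smallest adjusted p. Of these 13 genes, 11 rose and 2 fell. They include Inhba, Pmepa1, Serinc2, Nptx2, Batf3, Atf3, Trib2, Agmat and Acvr1c, which rose, E130012A19Rik and Tpd52l1, which fell, and the microRNA entries Mir5623 and Mir6984, which rose. Both microRNA entries were below 0.1 TPM on average in p16 WT CTL and passed the filter on low values (a mean of 0.1 TPM over the 8 libraries) only through p16 KO RUN, so their calls support nothing.

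**Figure D1:**
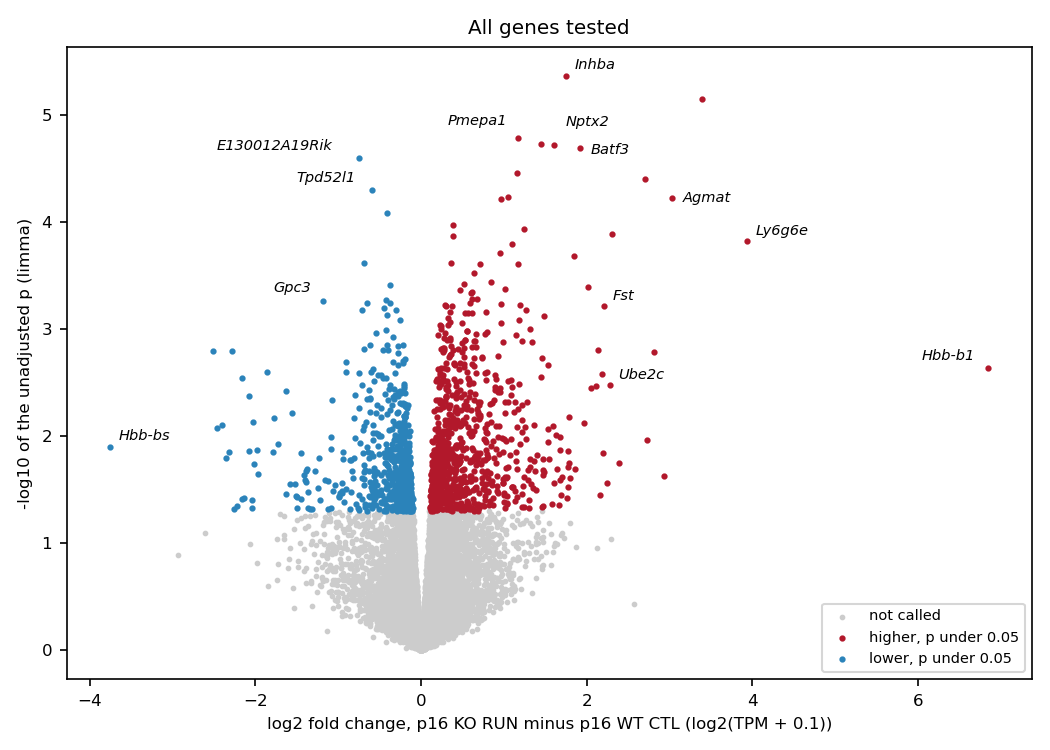
Each point is 1 of the 17350 genes tested. The x axis is the log2 fold change of p16 KO RUN minus p16 WT CTL and the y axis is the -log10 of limma's unadjusted p. The 855 genes that rose are in red and the 622 that fell in blue, and Inhba has the smallest p. Hbb-b1 and Hbb-bs, at the far right and far left, are 2 names for almost the same stretch of the genome.

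The gene of smallest p was Inhba, and Pmepa1 and Acvr1c of the same signalling system are also among the 13. Inhba (chr13:16014475-16027211 of mm10), the activin A subunit, was at 4.72, 5.26, 4.65 and 7.40 TPM in the p16 WT CTL libraries and at 16.4, 24.1, 15.5 and 19.3 TPM in the p16 KO RUN libraries. Every running knockout library thus stood above 15 TPM and every sedentary wild-type library below 8. The mean rose 3.42-fold. On the log2 scale the rise was 1.75 (standard error 0.18, limma adjusted p = 0.058), with values of 1.62 to 1.89 when any 1 library was omitted. Pmepa1 (chr2:173224465-173276533), a membrane protein induced by TGF-beta signals that restrains SMAD signalling, rose from 13.0 ± 1.68 to 29.7 ± 5.45 TPM (SD, n = 4), a log2 fold change of 1.17 (standard error 0.14). The receptor genes Acvr1c and Acvr1, which encode the type I receptors ALK7 and ALK2, rose by 0.96 and 0.39 on the log2 scale. Acvr1c lay between 13.0 and 18.4 TPM in p16 WT CTL and between 25.5 and 36.4 TPM in p16 KO RUN. Fst (chr13:114452262-114458951), which encodes follistatin, was at 0.775, 1.53, 3.23 and 3.77 TPM in p16 WT CTL and at 6.42, 9.13, 11.4 and 12.2 TPM in p16 KO RUN. Its libraries did not overlap either, and on the log2 scale it rose by 2.21 (standard error 0.43, limma adjusted p = 0.216).

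After Inhba had been seen to have the smallest p, 26 genes of activin and TGF-beta signalling were listed, with the values known, and the list is a description with no test. Of the 26, 7 rose (Inhba, Fst, Pmepa1, Acvr1c, Acvr1, and Skil and Ski, which bind SMADs and hold back their target genes) and 4 fell, against 4.93% and 3.59% of all genes. Those that fell were the TGF-beta receptor genes Tgfbr1 (log2 fold change -0.41, with 17.1 to 18.8 TPM in p16 WT CTL and 12.0 to 15.6 TPM in p16 KO RUN) and Tgfbr3 (-0.37), the ligand gene Tgfb2 (-0.22) and Inhbb, the activin B subunit (-0.37). The median of the list was 0.13, and 0.09 without p16 WT CTL replicate 1. The type II receptor genes Acvr2a and Acvr2b and the mediators Smad2, Smad3 and Smad4 did not pass the test, with log2 fold changes of 0.14, -0.31, -0.13, -0.06 and 0.04. With 1 library left out, 9 to 12 members were called, and the call of Ski was lost in 7 of the 8 fits and that of Inhbb in 5.

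**Figure D2:**
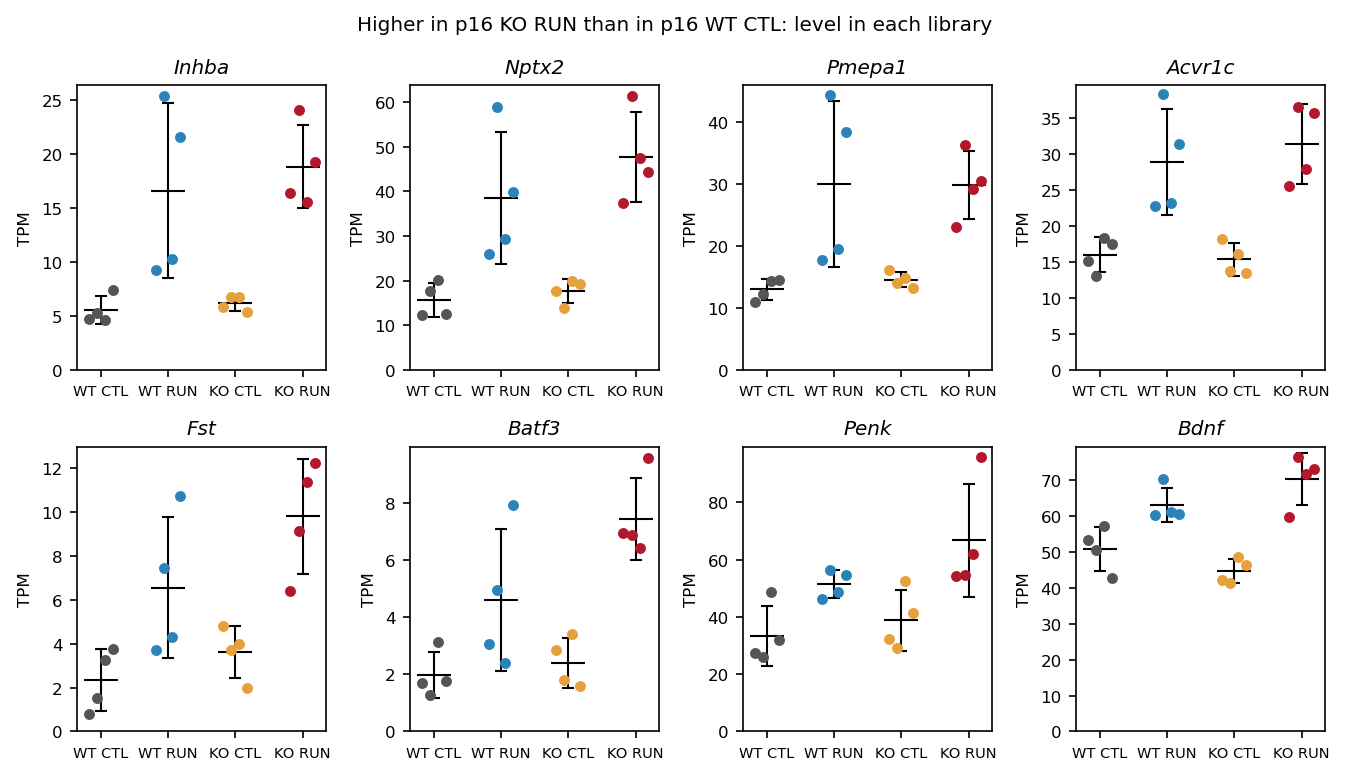
TPM of 8 genes that rose, in each of the 16 libraries. Points are libraries, black bars are the mean ± SD of 4 libraries, and groups are on the x axis. In all 8 genes every p16 KO RUN library lies above every p16 WT CTL library, and the spread of p16 WT RUN is wide for Inhba, Nptx2 and Pmepa1.

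Of 19 secreted and synaptic factors that neurons make on activation, 12 rose, 0 fell and 7 did not pass (63.2% called, against 8.51% of all genes). Like the other lists, this one was chosen with earlier results of these data known. It holds Inhba and Nptx2, which are among the risers of smallest p, so its shares are a description with no test. A total of 18 had a positive difference, and the median was 0.34 against 0.004 over all genes tested. Their summed level was 2320 to 2662 TPM in p16 WT CTL and 2808 to 3215 TPM in p16 KO RUN, without overlap. Nptx2 (chr5:144545887-144557478), which gathers AMPA receptors at synapses, was at 12.4, 17.7, 20.1 and 12.6 TPM in p16 WT CTL and at 37.5, 61.4, 47.5 and 44.3 TPM in p16 KO RUN. The lowest running knockout library was well above the highest sedentary wild-type library, and the log2 fold change was 1.60 (standard error 0.20, limma adjusted p = 0.058). Penk (chr4:4133536-4138445), which encodes the precursor of the enkephalins, rose from 33.5 ± 10.5 to 66.7 ± 19.7 TPM (SD, n = 4), a log2 fold change of 0.99 (standard error 0.22, limma adjusted p = 0.24). Bdnf (chr2:109674700-109727043), the brain-derived neurotrophic factor gene, was at 53.3, 50.6, 57.4 and 42.8 TPM in p16 WT CTL and at 59.9, 76.6, 71.9 and 73.1 TPM in p16 KO RUN. Its change was smaller, 0.46 on the log2 scale (standard error 0.11, limma adjusted p = 0.27), again without overlap.

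Lingo3 (0.53), the sorting receptor gene Sorcs3 (0.58), the cyclooxygenase gene Ptgs2 (0.56), the G protein regulator Rgs2 (0.36) and Plat, tissue plasminogen activator (0.17), also rose. The neuropeptide precursors Vgf (0.52) and Scg2 (0.27) and the scaffold gene Homer1 (0.34) passed the threshold, but with 1 library left out their p was above it in 4 to 6 of the 8 fits. The count of called members was 8 without p16 KO RUN replicate 15, the fewest, and 12 without p16 WT CTL replicate 2, the library with little nuclear RNA. Of 20 immediate early genes listed, 3 rose and 1 fell (20.0% called, against 8.51% of all genes). The median was -0.13, and 0.04 without p16 WT CTL replicate 2. Fosl2 rose from 21.2 to 36.9 TPM in p16 WT CTL to 39.2 to 44.5 TPM in p16 KO RUN (log2 fold change 0.57), Egr3 rose by 0.30 and Ier5 by 0.43. Dusp1, a phosphatase that switches off MAP kinases, fell by 0.56, a call that was lost in 6 of the 8 fits with 1 library left out.

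Among the 15 risers of smallest p were also transcription factors. Batf3 was at 1.28 to 3.13 TPM in p16 WT CTL and at 6.42 to 9.57 TPM in p16 KO RUN (log2 fold change 1.92, standard error 0.24), and the stress-induced factor Atf3 was at 1.69 to 1.88 TPM and 3.53 to 5.05 TPM (1.16, standard error 0.16). Serinc2 rose from 5.17 to 8.88 TPM in p16 WT CTL to 15.2 to 21.6 TPM in p16 KO RUN (1.45). Trib2, a pseudokinase, rose by 1.05, the prolactin receptor gene Prlr by 1.25, and the cardiac troponin T gene Tnnt2 by 1.10. Agmat and Ly6g6e had the largest fold changes of the 15, 3.03 and 3.94, from low levels, in p16 WT CTL 0.224 ± 0.211 and 0.340 ± 0.372 TPM (SD, n = 4). Srxn1, which repairs oxidised peroxiredoxins, was almost flat within p16 WT CTL (69.2 to 70.5 TPM) and higher in every p16 KO RUN library (85.5 to 99.1 TPM), a log2 fold change of 0.39. Tmem33 completes the 15, and its TPM stood at 2 levels, with 3 p16 KO RUN libraries at 43.2 to 47.6 TPM, the other one at 26.9 TPM, and p16 WT CTL at 18.9 to 21.3 TPM. In the other groups p16 WT RUN replicate 11 (48.7 TPM) and p16 KO CTL replicate 8 (51.9 TPM) were at the high level too, and how reads were assigned to this entry is uncertain. Drd4, the dopamine receptor D4 gene, singled out after its values were seen, rose from 0.278 to 2.73 TPM on average but overlapped, with 0.573 TPM in p16 KO RUN replicate 13 against 0.653 TPM in p16 WT CTL replicate 3.

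The 2 other groups place these risers. As mean and SD of 4 libraries, in p16 WT RUN and p16 KO CTL in this order, Inhba was at 16.6 ± 8.06 and 6.18 ± 0.706 TPM, Nptx2 at 38.5 ± 14.9 and 17.7 ± 2.73 TPM, and Bdnf at 63.1 ± 4.84 and 44.7 ± 3.38 TPM. In Inhba, Nptx2 and Bdnf both running groups were above both sedentary groups on average. For Inhba the log2 fold change of p16 WT RUN against p16 WT CTL was 1.45 and that of p16 KO CTL against p16 WT CTL was 0.24, while p16 KO RUN against p16 WT RUN gave 0.30. Batf3 and Serinc2 were higher in p16 KO RUN than in p16 WT RUN as well, by 0.82 and 0.59 on the log2 scale, but the libraries of these groups overlapped. Against p16 WT CTL, these genes were higher by 1.09 and 0.86 in p16 WT RUN, and by 0.34 and 0.21 in p16 KO CTL. These comparisons share libraries with Set D and are given as levels side by side.

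A comparison of p16 WT RUN with p16 KO CTL shares no library with Set D and changes running in the same direction and genotype in the opposite direction. It was added after the data had been seen. Of the 841 Set D risers tested there, 71.0% were higher in p16 WT RUN, against 52.8% of all 16998 genes tested in both, and of the 617 genes that fell in Set D 66.1% were lower, against 47.2% of all. Without p16 KO CTL replicates 6 and 7, which hold little of the nuclear noncoding RNAs, the shares were 73.3% against 49.1% and 68.5% against 50.9%. These shares are a description over genes that are not independent of each other, with no test.

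Few genes of cell division passed the test. Of 34 genes of mitosis and G2/M tested, 4 rose (Ube2c, Top2a, Cdk1 and Mki67) and 0 fell, which is 11.8% called against 8.51% of all genes, and 30 did not pass. The share called is near that of all genes. A positive difference was found in 24, and the median was 0.31, or 0.12 without p16 WT CTL replicate 2. Mki67 (chr7:135689788-135716379), the gene of the proliferation marker Ki-67, was at 1.47, 0.527, 1.44 and 1.36 TPM in p16 WT CTL and at 1.97, 1.80, 2.15 and 2.19 TPM in p16 KO RUN. The groups did not overlap, and the log2 fold change was 0.80 (standard error 0.29, limma adjusted p = 0.48). It was 0.50 without p16 WT CTL replicate 2, the lowest library. Top2a (chr11:98992947-99024189), the topoisomerase that untangles DNA before division, lay between 0.155 and 0.546 TPM in p16 WT CTL and between 0.763 and 1.36 TPM in p16 KO RUN (log2 fold change 1.22, standard error 0.33). Cdk1 (chr10:69336635-69352912), the kinase that starts mitosis, was at 0 to 0.104 TPM against 0.200 to 0.372 TPM (1.19, standard error 0.38), and Ube2c (chr2:164769929-164772902), which helps degrade the mitotic cyclins, at 0 to 0.667 TPM against 0.727 to 1.71 TPM (2.28, standard error 0.58). Pbk, a mitotic kinase gene outside the list that was singled out after its values were seen, rose from 0 to 0.166 TPM to 0.646 to 1.05 TPM. All 4 members kept their call in the fits with 1 library left out. Cdk1 and Pbk were below 0.1 TPM on average in p16 WT CTL and passed the filter on low values only through p16 KO RUN, so they had to differ and their calls support nothing.

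The levels of these 5 genes in the other groups are a description, since the genes were named for being high in p16 KO RUN and the comparison with p16 WT RUN uses the same p16 KO RUN libraries. Top2a was at 0.278 ± 0.171 TPM in p16 WT RUN and 0.357 ± 0.0982 TPM in p16 KO CTL (SD, n = 4), against 0.981 ± 0.265 TPM in p16 KO RUN. Mki67 was at 1.41 ± 0.301 TPM in p16 WT RUN and 0.736 ± 0.224 TPM in p16 KO CTL against 2.03 ± 0.178 TPM in p16 KO RUN (SD, n = 4). Against p16 WT RUN, p16 KO RUN was higher by 1.59 on the log2 scale in Top2a, 0.53 in Mki67, 1.88 in Ube2c, 1.60 in Cdk1 and 2.13 in Pbk. Apart from its summed level, the rest of the list was not compared with p16 WT RUN. Mki67 and Top2a are on a list the study drew from these libraries for this pattern, so their order over the groups is no independent evidence. The summed level of the list overlapped between the groups of Set D, with 55.8 to 79.6 TPM in p16 WT CTL and 74.2 to 78.3 TPM in p16 KO RUN. The sum was 67.4 to 71.8 TPM in p16 WT RUN and 54.3 to 71.0 TPM in p16 KO CTL. Both lay below p16 KO RUN without overlap, and no test was made.

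The promoters of the 4 mitotic genes that rose are shown because cell cycle genes are known to carry CCAAT boxes, bound by NF-Y, and a cell cycle homology region (CHR), bound by the DREAM and MuvB complexes that the retinoblastoma family works with. The 250 bases before each start site are given 5′ to 3′ on the gene's strand, from RefSeq on GRCm38.p6, with CCAAT and TTTGAA on either strand in capitals. The regions are chr7:135716380-135716629 (minus strand) for Mki67, chr11:99024190-99024439 (minus) for Top2a, chr10:69352913-69353162 (minus) for Cdk1 and chr2:164769679-164769928 (plus) for Ube2c.
Mki67: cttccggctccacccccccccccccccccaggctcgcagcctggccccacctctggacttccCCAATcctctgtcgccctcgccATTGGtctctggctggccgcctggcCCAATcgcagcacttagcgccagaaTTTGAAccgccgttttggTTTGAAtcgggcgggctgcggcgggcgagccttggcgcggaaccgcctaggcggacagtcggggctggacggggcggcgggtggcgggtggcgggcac
Top2a: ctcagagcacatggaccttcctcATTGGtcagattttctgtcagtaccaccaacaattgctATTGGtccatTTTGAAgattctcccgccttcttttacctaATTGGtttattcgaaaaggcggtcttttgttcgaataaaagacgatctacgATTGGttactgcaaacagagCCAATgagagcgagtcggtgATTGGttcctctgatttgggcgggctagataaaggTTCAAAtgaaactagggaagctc
Cdk1: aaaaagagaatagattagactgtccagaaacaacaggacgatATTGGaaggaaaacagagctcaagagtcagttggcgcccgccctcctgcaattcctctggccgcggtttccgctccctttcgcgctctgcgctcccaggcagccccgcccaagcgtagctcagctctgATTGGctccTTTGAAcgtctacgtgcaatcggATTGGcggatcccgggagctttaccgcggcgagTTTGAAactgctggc
Ube2c: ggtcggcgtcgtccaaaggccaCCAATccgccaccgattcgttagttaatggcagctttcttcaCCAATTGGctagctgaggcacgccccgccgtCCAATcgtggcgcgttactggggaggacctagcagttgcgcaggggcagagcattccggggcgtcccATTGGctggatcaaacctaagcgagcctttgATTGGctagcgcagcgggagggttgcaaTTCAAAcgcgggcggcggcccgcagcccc
Mki67 holds 3 CCAAT boxes and 2 CHR matches, Top2a 6 and 2, Cdk1 3 and 2, and Ube2c 6 and 1. In Ube2c, 2 of the 6 CCAAT matches overlap, on opposite strands. Of the 32851 promoters of the table, 5.55% hold both motifs, 33.8% CCAAT and 16.0% TTTGAA. Cdk1 is shown for its sequence alone, since its call supports nothing. The 2 motifs share no bases in these promoters. Of the 25 list members in the table that did not pass the test, 8 hold both. A match is a match of letters, not a measured site.

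**Figure D3:**
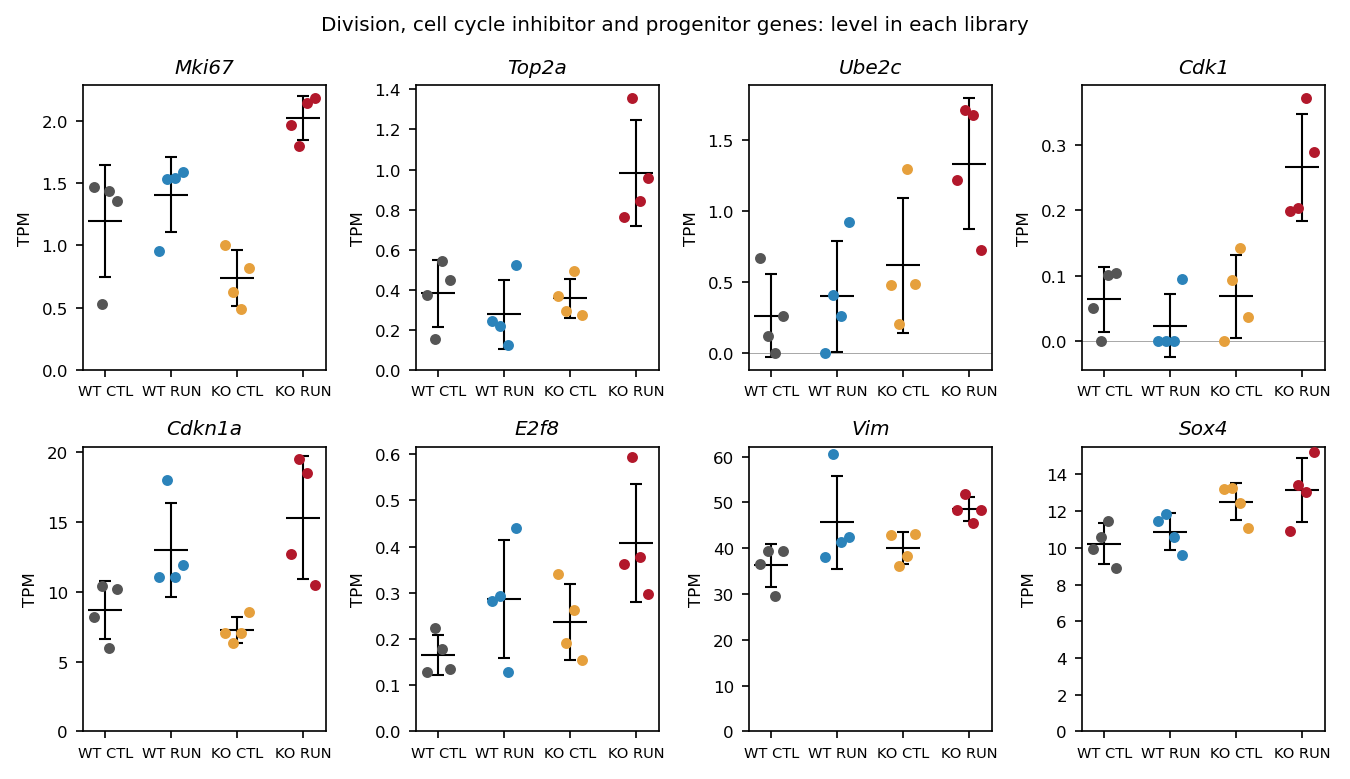
TPM of genes of division (Mki67, Top2a, Ube2c, Cdk1), of cell cycle control (Cdkn1a, E2f8) and of progenitor and glial cells (Vim, Sox4) in the 16 libraries. Points are libraries and black bars the mean ± SD of 4. Mki67, Top2a, Ube2c and Cdk1 are highest on average in p16 KO RUN, and Cdkn1a is higher on average in both running groups than in p16 WT CTL.

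Among the 25 tested genes of the Ink4 and Cip/Kip inhibitors and the Rb pathway, 3 rose and 2 fell (20.0% called). Cdkn1a (chr17:29090986-29100722), which encodes the inhibitor p21, was at 8.20, 10.4, 6.01 and 10.2 TPM in p16 WT CTL and at 12.7, 19.6, 18.5 and 10.5 TPM in p16 KO RUN. Before scaling, the highest sedentary library was just below the lowest running knockout library. After scaling the groups overlapped, with p = 0.0571 in an exact permutation test of the mean log2 difference, against 0.0286 for full separation. The log2 fold change was 0.79 (standard error 0.25, limma adjusted p = 0.42). Cdkn1a was at 13.0 ± 3.37 TPM in p16 WT RUN and at 7.25 ± 0.922 TPM in p16 KO CTL (SD, n = 4). E2f3, an activating E2F, rose by 0.23 and E2f8, a late repressing E2F at 0.129 to 0.223 TPM in p16 WT CTL, by 0.91, while the repressor E2f6 fell by 0.30 and the cyclin D1 gene Ccnd1 by 0.47. Without p16 KO RUN replicate 14 the list had 3 called genes, and E2f8 was not among them. Cdkn2a itself does not check the genotype, since its entry (chromosome 4) pools p16Ink4a with the p19Arf transcript that the knockout keeps. It was at 0, 0.586, 0 and 0.0843 TPM in p16 WT CTL and at 0.413, 0, 0 and 0 TPM in p16 KO RUN, near 0 in both groups, and no difference was detectable at this level. Of the 260 genes tested within 30 Mb of Cdkn2a, 32 were called (12.3%), 15 higher and 17 lower, against 8.46% of the other genes. Of 33 DNA replication genes tested, 2 rose (Pole, by 0.60, and Gins1) and 1 fell (Gins4), which is 9.09% called and near the 8.51% of all genes, and the median was -0.01. Only 1 of them was called without p16 WT CTL replicate 2 or without p16 KO RUN replicate 15, and 5 without p16 KO RUN replicate 13.

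Of 14 genes of neural stem cells and radial glia, 4 rose (28.6% called, against 8.51% of all genes). The median was 0.15, and 0.24 without p16 WT CTL replicate 2. Vim, an intermediate filament of radial glia, rose from 29.6 to 39.5 TPM in p16 WT CTL to 45.5 to 51.9 TPM in p16 KO RUN (log2 fold change 0.42), and Gfap, made by stem cells and astrocytes alike, rose by 0.42 with overlap. Tfap2c, at most 0.277 TPM, and Prom1 also passed, each in 4 of the 8 fits with 1 library left out, and without p16 WT CTL replicate 1 or p16 KO RUN replicate 13 only 2 genes of the list were called. Tfap2c passed the filter on low values only through p16 KO RUN, so its call supports nothing. Of 11 genes of intermediate progenitors and newborn neurons, 2 rose (18.2% called), Sox4 by 0.35 and Igfbpl1 by 1.21. The Igfbpl1 call was lost in 6 of the 8 fits, and both calls were lost without p16 WT CTL replicate 4 or without p16 KO RUN replicate 16. The summed level of this list was 158 to 184 TPM in p16 WT CTL and 147 to 169 TPM in p16 KO RUN. Among oligodendrocyte precursor markers 2 of 10 (20.0%) rose, Olig2 by 0.28 and Gpr17 by 0.53, and neither was called without p16 WT CTL replicate 1 or without p16 KO RUN replicate 15.

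Of 22 glutamate receptor genes 5 rose and 0 fell (22.7% called, against 8.51% of all genes). Grin2c, an NMDA receptor subunit, rose from 29.6 to 32.9 TPM in p16 WT CTL to 35.1 to 37.8 TPM in p16 KO RUN (log2 fold change 0.21), and Grm2, a presynaptic metabotropic receptor, by 0.68 with overlap. Without p16 KO RUN replicate 13 or 14, 3 glutamate receptor genes were called. Without p16 WT CTL replicate 2, 4 rose and 2 fell, and with the nuclear RNA score as covariate 5 rose and 2 fell. Of 17 GABA and glycine receptor genes 3 rose and 0 fell (17.6% called). Gabbr2, a subunit of the GABA-B receptor, was at 233 to 266 TPM in p16 WT CTL and at 284 to 299 TPM in p16 KO RUN (0.18), and without p16 WT CTL replicate 1 it was the 1 gene of this list still called. Among 26 genes of monoamine and acetylcholine signalling 2 rose (7.69%, below the share of all genes). Drd1, the dopamine receptor D1 gene, was at 2.24 to 7.24 TPM in p16 WT CTL and at 7.20 to 17.5 TPM in p16 KO RUN (1.22), and Slc18a2, the vesicular monoamine transporter, at 5.53 to 6.52 TPM and 6.52 to 9.55 TPM (0.48). Of 33 potassium channel genes 4 rose, led by Kcnj10 (0.38), the inward rectifier of astrocytes, and Kcnj6 (0.33), and 1 fell, Kcnt2 (-0.21), with 3 called without p16 KO RUN replicate 13, 14 or 16. The Kcnj10 call was lost with all 16 libraries in one fit. Without p16 WT CTL replicate 2, 3 channel genes rose and 2 fell, and with the nuclear RNA score as covariate 4 rose and 3 fell. Of 30 genes of presynaptic release 2 rose (6.67%, also below it), Nrxn2, a neurexin, by 0.27 without overlap, and Unc13d, whose call was lost in 6 of the 8 fits with 1 library left out. Without p16 WT CTL replicate 3 this list had 5 called genes.

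Growth factor genes moved in both directions. Of 29 genes of neurotrophin, IGF and VEGF signals 3 rose and 2 fell (17.2% called). The IGF-binding proteins went opposite ways. Igfbp6 rose from 12.1 to 21.9 TPM in p16 WT CTL to 22.96 to 36.9 TPM in p16 KO RUN (log2 fold change 0.97), and Igfbp5 (chr1:72858065-72874865) fell from 145 to 224 TPM to 83.1 to 137 TPM (-0.69, standard error 0.15). Angpt2, an angiopoietin, was at 0.462 to 0.821 TPM in p16 WT CTL and at 0.945 to 2.29 TPM in p16 KO RUN (1.18), and the neurotrophin gene Ntf3 fell by 0.34. Among 28 genes of Notch and BMP signals 3 rose and 1 fell (14.3% called, against 8.51% of all genes). The ligand gene Bmp6 rose by 0.62 and the BMP target Id3 by 0.38, and the receptor gene Bmpr1b fell by 0.68, a call lost without p16 WT CTL replicate 2. Of 27 Wnt genes, Wnt7b rose by 0.38 and Trabd2b, a Wnt-degrading protease, fell by 1.12 (7.41% called, below the 8.51% of all genes). The Trabd2b call was lost in 4 of the 8 fits with 1 library left out, and without p16 WT CTL replicate 2 the Wnt list had 5 called genes. Trabd2b was at 0.199 to 0.604 TPM in p16 KO CTL. Lipid handling genes included 5 that rose of 25, and 0 that fell (20.0% called). Lpin2 was at 58.3 to 69.7 TPM in p16 WT CTL and at 76.8 to 79.4 TPM in p16 KO RUN (0.24), Lrp8, the reelin and apolipoprotein E receptor gene, rose by 0.35, the leptin receptor gene Lepr by 1.09, from 0.417 to 0.959 TPM to 1.00 to 2.11 TPM, and the fatty acid transporter Slc27a3 by 0.58.

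Of 24 genes of the interferon response and MHC class I, 7 rose and 0 fell (29.2% called, against 8.51% of all genes), all 7 without overlap (5.53% of all genes did not overlap). The median was 0.21, with 0.12 without p16 WT CTL replicate 1 and 0.30 without replicate 2 of that group. The antiviral gene Oas1a was at 0.333, 0.267, 0.235 and 0.215 TPM in p16 WT CTL and at 0.581, 0.622, 0.579 and 0.622 TPM in p16 KO RUN, a log2 fold change of 0.95 (standard error 0.25, limma adjusted p = 0.30). All values are low, but those within a group lie close together. Rsad2, which encodes viperin, rose by 0.86, the regulator Irf7 by 0.69, Bst2, which encodes tetherin, by 0.60, Oasl2 by 0.37, and the MHC class I genes H2-D1 and H2-K1 by 0.31 and 0.24. With 1 library left out, the Oasl2 call was lost in 5 of the 8 fits and that of H2-K1 in 2. H2-D1 lay between 39.0 and 45.0 TPM in p16 WT CTL and between 48.3 and 56.3 TPM in p16 KO RUN. Reads of MHC class I genes can fit several copies, so their split between genes is uncertain. In p16 KO CTL Rsad2 was at 1.24 ± 0.110 TPM (SD, n = 4), between p16 WT CTL (0.740 ± 0.204) and p16 KO RUN (1.41 ± 0.223). On average Oas1a and H2-D1 were also between these groups there, at 0.409 and 46.9 TPM. Irf7 was not, with 0.947 ± 0.582 TPM in p16 KO CTL against 1.26 ± 0.231 TPM in p16 WT CTL (SD, n = 4). In p16 WT RUN the means of Rsad2 (1.04 TPM), H2-D1 (45.1 TPM) and Irf7 (1.64 TPM) also lay between p16 WT CTL and p16 KO RUN. That of Oas1a, 0.187 TPM, was below p16 WT CTL.

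Interferon-induced genes are known to carry an interferon-stimulated response element, whose core was searched on both strands as GAAA, any 2 bases and GAAA. In the 250 bases before the start it is present in Rsad2, Oas1a and Bst2, that is in 3 of the 7 genes, and in 2.98% of all promoters of the table. Those of Rsad2 (chr12:26456453-26456702, minus strand) and Oas1a (chr5:120907526-120907775, minus) are given with the matches in capitals, from RefSeq on GRCm38.p6. The 2 matches of Oas1a overlap.
Rsad2: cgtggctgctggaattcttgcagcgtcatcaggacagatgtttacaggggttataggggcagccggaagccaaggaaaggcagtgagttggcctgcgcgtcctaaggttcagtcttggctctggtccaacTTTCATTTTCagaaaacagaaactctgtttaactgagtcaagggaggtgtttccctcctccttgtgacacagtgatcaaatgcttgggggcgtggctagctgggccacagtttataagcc
Oas1a: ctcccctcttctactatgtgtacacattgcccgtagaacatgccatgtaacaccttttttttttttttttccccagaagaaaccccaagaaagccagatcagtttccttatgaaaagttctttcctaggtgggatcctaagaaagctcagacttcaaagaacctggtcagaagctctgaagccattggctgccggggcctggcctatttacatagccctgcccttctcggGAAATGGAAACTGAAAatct
For the activity-induced factors the cAMP response element TGACGTCA, bound by CREB, was searched in the same way. Of the 12 genes that rose 8 are in the table, and 1 of these, Scg2, holds it, against 1.55% of all promoters. Its region is chr1:79440027-79440276 (minus strand).
Scg2: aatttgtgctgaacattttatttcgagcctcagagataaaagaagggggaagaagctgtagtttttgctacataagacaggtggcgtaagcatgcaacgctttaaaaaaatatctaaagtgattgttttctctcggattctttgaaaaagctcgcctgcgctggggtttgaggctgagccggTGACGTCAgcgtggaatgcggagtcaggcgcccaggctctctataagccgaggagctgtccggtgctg
The Inhba and Bdnf windows do not hold these letters, which says nothing of the factor.

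Circadian clock genes were among those most often called, with 3 of 19 higher and 5 lower (42.1% called). The D-box factors Dbp, Hlf and Tef, which peak together in the daily cycle, fell by 0.52, 0.53 and 0.36, and Bhlhe40 and Ciart fell by 0.40 and 0.68. Cry1, Npas2 and Bhlhe41 rose by 0.35, 0.33 and 0.34. Tef was at 248 to 325 TPM in p16 WT CTL and at 257, 173, 237 and 243 TPM in p16 KO RUN, and Dbp at 47.7 to 56.5 TPM and, in p16 KO RUN, between 54.6 TPM in replicate 13 and 23 TPM in replicate 14. For both genes p16 KO RUN replicate 14 was lowest, and in TPM before scaling replicate 13 lay within the range of p16 WT CTL. Before scaling, Cry1 alone of the 8 genes showed no overlap. After scaling Tef did not overlap either (exact permutation test of the mean log2 difference, p = 0.0286, the smallest possible). With 1 library left out the calls of Dbp, Ciart, Npas2, Bhlhe41 and Hlf were lost in 2 to 5 of the 8 fits, and the count of called members was 4 without p16 WT CTL replicate 1 and 11 without p16 KO RUN replicate 13. The hour of tissue collection is not in the labels, and its part in these values was not tested. Of 16 glucocorticoid response genes 3 rose, among them Cdkn1a and Sgk1, by 0.32 (18.8% called, against 8.51% of all genes), and 5 were called without p16 WT CTL replicate 4. The groups overlapped for Sgk1, and its call was lost with all 16 libraries in one fit. Fkbp5 rose by 0.21, a call lost in that fit and in 7 of the 8 fits with 1 library left out.

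**Figure D4:**
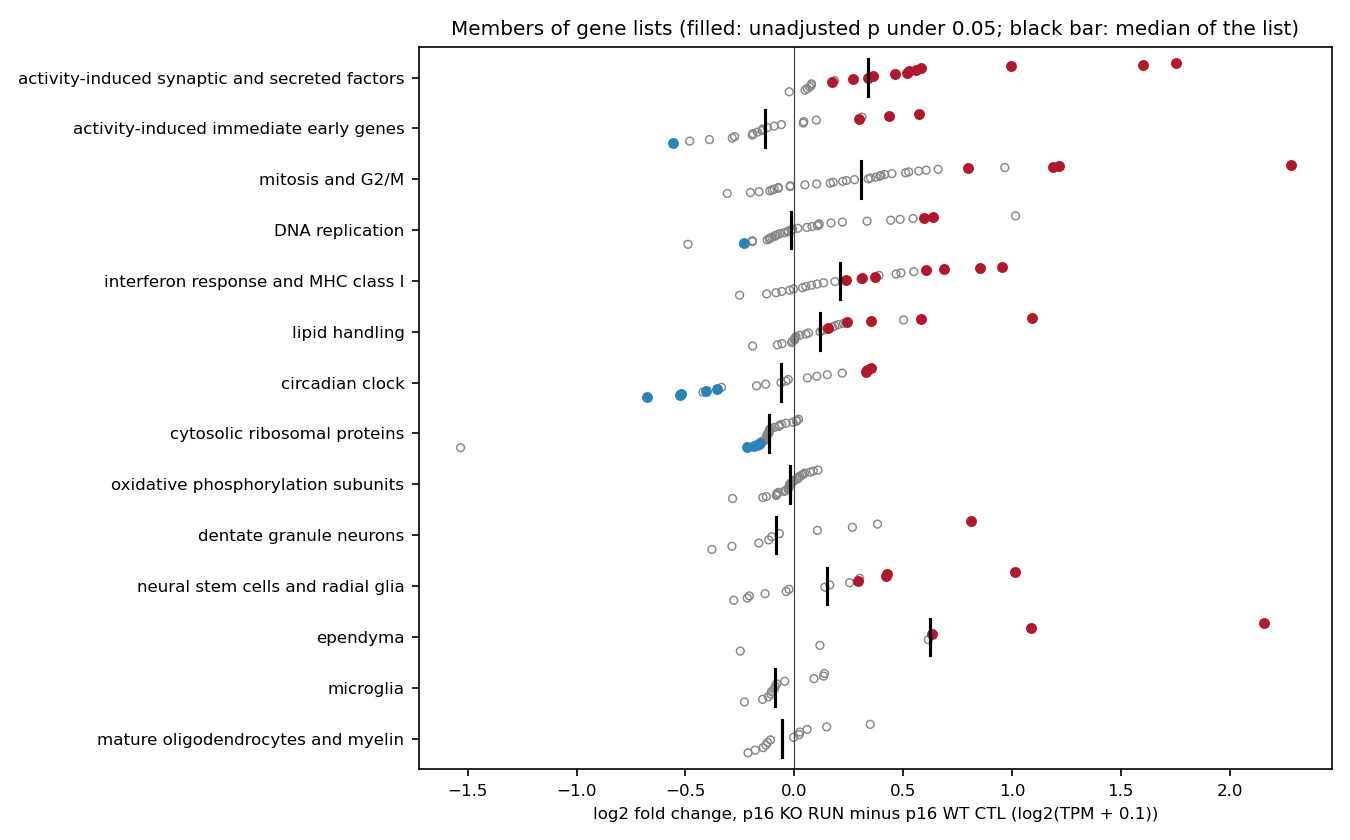
Log2 fold change (p16 KO RUN minus p16 WT CTL) of each tested member of 14 gene lists. Filled points passed an unadjusted p of 0.05 (red higher, blue lower), open points did not, and the black bar is the median of the list. The activity-induced synaptic and secreted factors have the most called members (12 of 19), and the microglial, myelin and oxidative phosphorylation lists have none.

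Of 29 cytosolic ribosomal protein genes 0 rose and 5 fell (17.2% called, against 8.51% of all genes). The median was -0.12, and -0.06 without p16 WT CTL replicate 2. Rps19 fell by 0.22 on the log2 scale, Rpl14 by 0.18, Rpl38 by 0.17 and Rpl5 by 0.16. Rpl14 was at 518 to 559 TPM in p16 WT CTL and at 464 to 509 TPM in p16 KO RUN. Leaving out p16 KO RUN replicate 13 left 2 of these calls, and leaving out replicate 16 gave 8, while with all 16 libraries in one fit 0 were called. None of 29 oxidative phosphorylation genes and none of 23 glycolysis genes passed at an unadjusted limma p of 0.05, with medians of -0.02 and 0.02. Of 24 antioxidant genes 4 rose, among them Srxn1 and Sod3 (0.27, without overlap), and 1 fell, Gsta4 (-0.39), which is 20.8% called. Without p16 KO RUN replicate 16 only 2 of these were called. Of 25 genes of apoptosis and p53 targets 2 rose (8.0% called, not above the 8.51% of all genes), Eif2ak2, the kinase PKR, by 0.43 and Gadd45a by 0.37. The Gadd45a call was lost in 5 of the 8 fits with 1 library left out, and neither gene was called with all 16 libraries in one fit.

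Markers of other cell types that the dissection could hold were tested as well. Microglia (12 genes), mature oligodendrocytes and myelin (12), endothelium and pericytes (12), choroid plexus (9), mossy cells, CA1 pyramidal neurons (5 each) and thalamus and habenula (8) had 0 members at an unadjusted limma p under 0.05. Even so, 12 of 12 endothelial markers (median 0.19) and 5 of 5 CA1 markers (median 0.21) had a positive difference. The summed level of the granule neuron markers was 663 to 1442 TPM in p16 WT CTL and 868 to 1311 TPM in p16 KO RUN, and 1 of 10 rose, Pdzd2 (0.81). Of 6 ependymal markers, those of the ciliated cells that line the ventricles, 3 rose (50% called, against 8.51% of all genes), Rarres2 by 1.09, Foxj1, the master factor of motile cilia, by 0.63, and Tmem212. The groups overlapped for Tmem212, at 0 to 0.94 TPM in p16 WT CTL and 0.57 to 3.73 TPM in p16 KO RUN, and its call was lost in 4 of the 8 fits with 1 library left out. The summed level of the 6 markers was 10.3 to 20.1 TPM in p16 WT CTL against 21.6 to 37.4 TPM in p16 KO RUN. In p16 KO CTL the sum was 22.0 to 33.1 TPM and in p16 WT RUN 15.7 to 28.4 TPM. Rarres2 was at 13.5 ± 2.49 TPM in p16 KO CTL and 8.82 ± 2.60 TPM in p16 WT RUN (SD, n = 4). For Rarres2 both knockout groups were the higher ones on average. Foxj1 was instead higher in p16 WT RUN (5.985 ± 0.746 TPM) than in p16 KO CTL (5.045 ± 1.20 TPM, SD, n = 4). The part of ependymal RNA in the other results was not tested. Singly, the interneuron genes Vip (0.79, from 8.22 to 14.5 TPM to 16.6 to 18.99 TPM) and Reln (0.21), the astrocyte gene Slc4a4 (0.16, beside Gfap, neither of them called with all 16 libraries in one fit) and the CA2 gene Map3k15 (0.64) rose, and the CA2 gene Rgs14 (-0.21), the CA3 gene Npy2r (-0.25) and the fibroblast gene Lum (-0.51) fell. Lum went against its list, in which 9 of 11 genes had a positive difference with a median of 0.41, and the summed level was 228 to 467 TPM in p16 WT CTL against 273 to 610 TPM in p16 KO RUN. Of these, Reln (also a Cajal-Retzius marker), Map3k15, Rgs14 and Lum lost their call in 3 to 6 of the 8 fits with 1 library left out. Without p16 WT CTL replicate 2, 1 granule neuron marker was higher and 3 were lower (median -0.17), and 4 interneuron markers were higher. In the same fit 4 of 10 astrocyte markers were higher (median 0.13, against 0.05 with all 8 libraries). There, 3 fibroblast markers were higher and 1 lower (median 0.60), and the CA1 median was 0.34. Without p16 KO RUN replicate 15, 4 endothelial markers were called. Among 13 nuclear noncoding RNAs tested Rian rose by 0.30 and Peg13 fell by 0.13, calls lost in 5 and 2 of the 8 fits with 1 library left out. The Rian call was also lost with all 16 libraries in one fit and with the TPM as deposited. Of 5 blood genes Hbb-bs fell. The called markers named here were chosen after their values were seen.

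Among the genes that fell, E130012A19Rik (chr11:97627387-97629716) had the smallest p. It was at 24.4, 24.5, 25.1 and 21.8 TPM in p16 WT CTL and at 16.7, 12.6, 14.3 and 13.6 TPM in p16 KO RUN, a log2 fold change of -0.75 (standard error 0.10, limma adjusted p = 0.063). The groups do not overlap. Tpd52l1 (chr10:31332380-31445921), of the tumor protein D52 family, was at 62.1, 66.5, 61.1 and 65.1 TPM in p16 WT CTL and at 45.3, 43.6, 44.1 and 36.5 TPM in p16 KO RUN (-0.60, standard error 0.08, limma adjusted p = 0.081). Gpc3, a heparan sulfate proteoglycan, fell by 1.18, from 8.94 to 10.5 TPM in p16 WT CTL to 3.08 to 7.08 TPM in p16 KO RUN. The remaining 7 of the 10 were Gstm7 (-0.41), a glutathione transferase, Ctxn2 (-0.69), Gpr12 (-0.37), an orphan receptor, Map7 (-0.43), which binds microtubules, Tmem114 (-0.66), Gdf10 (-0.38), a growth factor of the TGF-beta family, and Mtrf1 (-0.45), a mitochondrial release factor. All 10 kept their call with each library left out in turn.

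In the other groups these genes differed. E130012A19Rik was at 25.0 ± 4.52 TPM in p16 KO CTL and 17.2 ± 5.40 TPM in p16 WT RUN (SD, n = 4). Tpd52l1 was at 37.3 ± 7.15 TPM in p16 KO CTL and 52.3 ± 19.2 TPM in p16 WT RUN (SD, n = 4), and its log2 fold change in p16 KO CTL against p16 WT CTL was -0.73. Map7, also on chromosome 10, was at 50.6 ± 13.1 TPM in p16 KO CTL against 72.2 ± 8.30 TPM in p16 WT CTL (SD, n = 4). Igfbp5 and Gpc3 were near the wild-type level in p16 KO CTL, at 175 ± 50.8 and 8.35 ± 2.92 TPM (SD, n = 4).

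**Figure D5:**
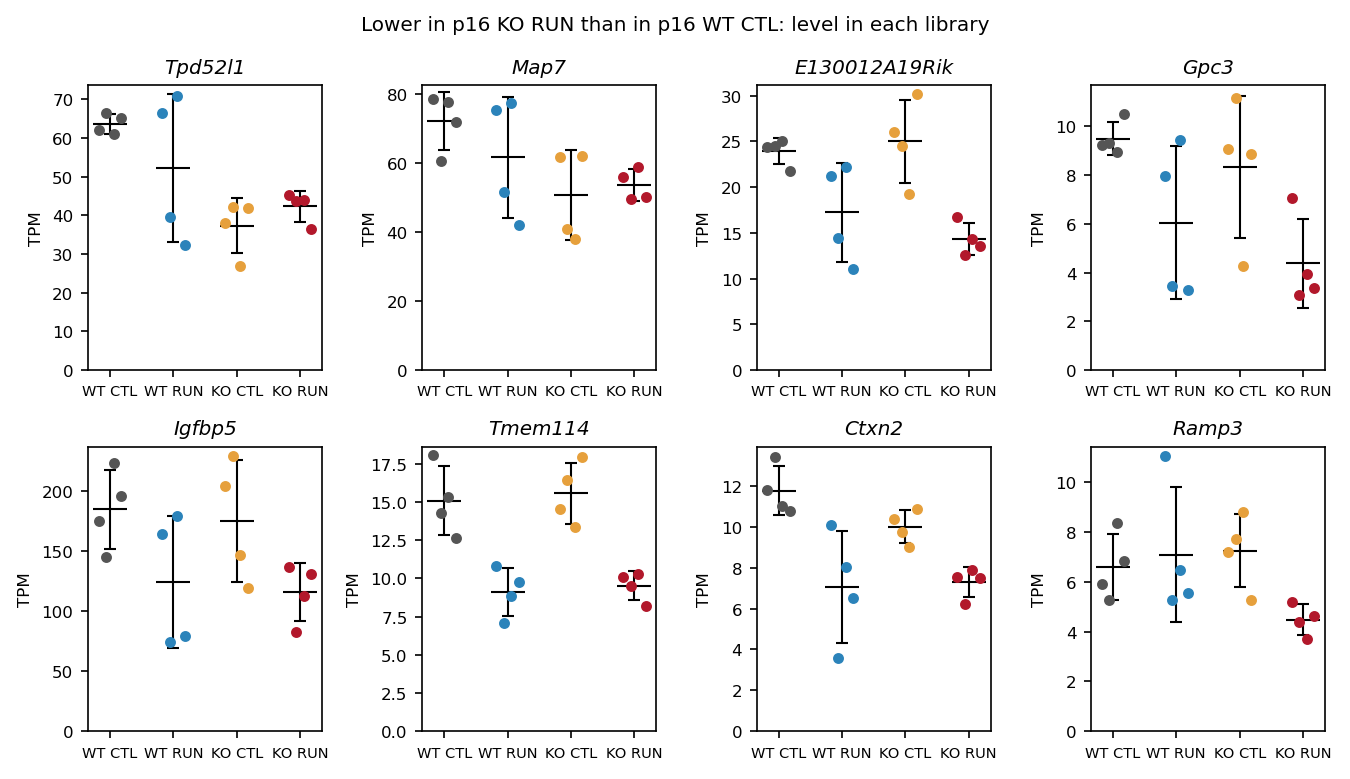
TPM of 8 genes that fell, in each of the 16 libraries. Points are libraries and black bars the mean ± SD of 4. In all 8 genes every p16 KO RUN library lies below every p16 WT CTL library, and Tpd52l1 is also low in all 4 p16 KO CTL libraries.

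The study drew a list of 29 genes from these libraries, first by a genotype-by-running interaction over all 4 groups and then by Sets D and E (p16 KO RUN against p16 WT CTL and against p16 WT RUN), so its direction in Set D is no independent evidence. In these values 15 rose, 8 fell and 6 did not pass (79.3% called, against 8.51% of all genes), and in 16 the libraries did not overlap, as in 5.53% of all genes. The list was chosen on this contrast, and nothing is read from these shares. Without p16 KO RUN replicate 16, 15 members were called. Beside Mki67, Top2a, Gabbr2, Slc18a2 and Lepr it holds Col18a1, the collagen of which endostatin is a fragment, at 1.49 to 1.72 TPM in p16 WT CTL and 2.20 to 4.03 TPM in p16 KO RUN (0.71), and Ramp3, a partner of the calcitonin receptor family, which fell from 5.26 to 8.33 TPM to 3.68 to 5.17 TPM (-0.54). Rgs14, a regulator of G protein signals in CA2 neurons, was at 76.1 ± 8.16 TPM in p16 KO RUN, below p16 WT CTL (87.7 ± 7.10), p16 WT RUN (89.9 ± 4.93) and p16 KO CTL (95.2 ± 6.62, SD, n = 4), and its log2 fold change in Set D was -0.21, a call lost without p16 WT CTL replicate 3 and without p16 KO RUN replicates 13 or 15. Prc1 and Fam103a1 are among those that did not pass, with log2 fold changes of 0.51 and -0.19.

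The highest and the lowest log2 fold change, 6.85 and -3.75, were opposite and came from the beta-globin locus. Hbb-b1 (chr7:103826532-103827929) was at 0.170 to 0.508 TPM in p16 WT CTL and at 294, 0.661, 228 and 129 TPM in p16 KO RUN, and Hbb-bs (chr7:103826523-103827928) was at 154 to 438 TPM in p16 WT CTL and at 4.45, 265, 18.5 and 2.99 TPM in p16 KO RUN. In p16 KO RUN replicate 14, where Hbb-b1 was low, Hbb-bs was high. These names cover nearly the same bases, so how reads were divided between the 2 names is uncertain. The sum of Hbb-b1, Hbb-bs and Hbb-bt was 157 to 444 TPM in p16 WT CTL and 154 to 300 TPM in p16 KO RUN, with overlap.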

How the data were processed

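RNA from the dentate gyrus of 2 pooled mice per library was sequenced. The authors masked adapters (Cutadapt 1.11), trimmed the reads with ERNE and aligned them to mm10 with STAR. They deposited, per the file headers, StringTie abundances per gene as TPM, FPKM and coverage (a signal). The versions of STAR and StringTie are not given in the sources used here, and the study's own calls were made with HTSeq and DESeq2 on counts not used here. Entries of the same gene name were summed (24421 names). Libraries were scaled by the median ratio over 13226 genes of at least 1 TPM, and log2(TPM + 0.1) was fitted with limma 3.58.1 (R 4.3.3, statmod 1.5.0), with a variance trend, where a gene's mean over the 8 libraries reached 0.1 TPM. P-values were adjusted by Benjamini-Hochberg over all 17350 genes. The deposited FPKM served as an alternative and the deposited coverage to set the libraries' relative coverage side by side. The labels give separate pools, so p-values measure the spread between pools.

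Named genes were the 15 risers and 10 fallers of smallest p with a mean of at least 1 TPM and no overlap, up to 4 called members of each of 42 lists (23 of pathways, 19 of cell types; where none was called, the most abundant member), members of the study's list for Sets D and E at a mean of at least 1 TPM, and Cdkn2a. For some lists further members are given in the text, and the remaining genes are said to have been singled out after their values were seen. The comparison, the members and the lists were chosen with earlier results of these data known. The fit was tested on simulated data. Alternatives were other filters, pseudocounts, scalings, units, fits, library weights, a nuclear RNA covariate and leaving out each library. The values of 1 ribosomal protein gene are not reported here.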

Additional observations from a re-analysis of the deposited data

Results flagged for a closer look

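In groups of 4 libraries, a library whose gap to the nearest of the others exceeded Dixon's 95% critical value was marked, which chance does in about 1 in 20 groups. It occurred in 20 of the 316 groups of named genes, and no explanation was tested. In p16 WT CTL, replicate 2 stood low in Mki67 (0.527 TPM, others 1.36 to 1.47) and Gabbr2 (233.2 TPM, others 262.8 to 266.2) and high in Cdkn2a (0.586 TPM, others at most 0.0843). Replicate 3 stood high in Agmat (0.539 TPM, others at most 0.147), Rsad2 (1.04 TPM, others at most 0.656) and Prom1 (6.16 TPM, others at most 5.32). Replicate 4 stood high in Prlr (0.876 TPM, others at most 0.720) and replicate 1 in Hbb-bs (438.3 TPM, others at most 199.8).

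In p16 KO RUN, replicate 16 stood high in Batf3 (9.57 TPM, others 6.42 to 6.95), Rps19 (278.1 TPM, others at most 262), Ski (150.9 TPM, others at most 136.3), the neurexophilin gene Nxph4 (3.23 TPM, others at most 1.64) and C1ql2, a synaptic protein of mossy fibres singled out after its values were seen (557 TPM, others at most 354.2). Replicate 13 stood low in E2f3 (27.5 TPM, others 31.0 to 31.3) and Fosl2 (39.2 TPM, others 43.9 to 44.5), and high in Col18a1 (4.03 TPM, others at most 2.44) and Cdkn2a (0.413 TPM, others 0). Replicate 15 stood low in Irf7 (1.60 TPM, others at least 2.23) and Tfap2c (0.0946 TPM, others at least 0.249), and replicate 14 high in Hbb-bs (264.9 TPM, others at most 18.5).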

How the results depend on the processing

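The count of genes at an unadjusted p under 0.05 was 1477, and stayed between 1292 (mean of at least 1 TPM) and 2179 (nuclear RNA score as covariate) under the alternatives with all 8 libraries. Leaving out 1 library gave 1107 to 1934, the lowest without p16 WT CTL replicate 1 and the highest when replicate 2 of that group was omitted. At limma's adjusted p under 0.05 the count was 0 with all libraries, 1 with no filter, 2 with a pseudocount of 0.01 and 0 to 3 with 1 library left out. The smallest adjusted p ranged from 4.8e-05 (without p16 KO RUN replicate 14) to 0.208 (without p16 KO RUN replicate 16). The cause was not tested. Of 3143 values of the 158 named genes under 20 alternatives, 2821 stayed on the same side of the threshold, 311 no longer passed and 11 newly passed. The sign of a called value changed in 0, while values that did not pass could change sign, as those of Atp5b and Aldoa did with 1 library left out. Of the 149 called, 95 kept their call with each library left out. Quantile normalization gave 50.8% higher among the called genes, against 57.9%. No paired analysis was possible because no replicate number is shared by the 2 groups. Without read counts, the precision of genes below about 1 TPM, such as Cdk1, is unknown.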

Other observations

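Within p16 WT RUN, the libraries were far apart in several genes of Set D. Inhba, the activin A subunit, was at 9.27, 25.3, 10.2 and 21.6 TPM in replicates 9 to 12, and Pmepa1 at 17.7, 44.2, 19.4 and 38.3 TPM. Replicates 10 and 12 were the higher ones in both. Some genes that fell in Set D were lower in replicates 10 and 12, with Tpd52l1 at 66.4, 39.6, 70.9 and 32.3 TPM, Gpc3 at 7.97, 3.44, 9.46 and 3.29 TPM, E130012A19Rik at 21.2, 14.4, 22.2 and 11.0 TPM and Igfbp5 at 164, 74.8, 180 and 79.5 TPM. Other genes did not follow this order. Tmem114, which fell, was at 10.8, 7.08, 8.84 and 9.75 TPM in replicates 9 to 12, and Atf3, which rose, at 3.27, 2.92, 5.04 and 2.23 TPM, and among the 15 risers of smallest p Acvr1, Tnnt2 and Tmem33 departed from it as well. The 4 p16 KO RUN libraries were closer together, with Inhba at 15.5 to 24.1 TPM and Igfbp5 at 83.1 to 137 TPM. The genes were named for Set D and the pattern in p16 WT RUN was seen afterwards. The running distance of the mice is not in the labels, and no test was made.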
